A study of Mus musculus with 13 samples.

Results

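Sialyltransferases are Golgi enzymes that attach sialic acid to the outer ends of the sugar chains of glycoproteins and glycolipids. Each enzyme prefers a linkage and an acceptor, and the family is named accordingly, with ST6Gal and ST3Gal enzymes capping galactose, ST6GalNAc enzymes capping N-acetylgalactosamine and ST8Sia enzymes extending sialic acid itself. Developing thymocytes change these caps as they mature, and the caps influence which lectins (sugar-binding proteins) bind CD8, CD43 and CD45 on the cell surface. The expression of 10 genes of this family was followed across β-selection, the checkpoint between the DN3 and DN4 stages at which thymocytes that made a working TCRβ chain go on. The 10 genes, St6gal1, St3gal1, St3gal2, St3gal3, St3gal4, St3gal6, St6galnac3, St6galnac4, St6galnac6 and St8sia1, were chosen by name from the 47937 genes of the count table, with the rise of St6gal1 between the stages already known. They make up 10 of the 20 sialyltransferase genes of the mouse.

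The RNA came from DN3 and DN4 thymocytes sorted from 6-week-old C57BL/6 mice, in 13 libraries from 7 mice. Of these mice, 4 were WT;Lck-Cre+ (Wt) and 3 were Opa1fl/fl;Lck-Cre+ (called KO-labelled here), so both genotypes carried the Lck-Cre transgene, which is active in developing T cells. Both stages were sequenced in 6 mice and DN4 alone in the Wt mouse WT40, which gave 3 Wt and 3 KO-labelled DN3 libraries against 4 Wt and 3 KO-labelled DN4 libraries. OPA1 is the mitochondrial inner membrane GTPase targeted in the floxed mice. Opa1 itself, counted over the whole gene, measured 91.1 to 111.8 CPM (counts scaled to a common library size) in Wt DN3, 88.6 to 93.8 in KO-labelled DN3, 85.1 to 93.8 in Wt DN4 and 77.0 to 88.0 in KO-labelled DN4, so these counts overlapped between the genotypes in each stage, and the deletion of part of the gene was not examined here.

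The libraries held 5926848 to 14148661 counts, with a median of 10023044. The DN3 library of WT05 stood apart, because 20.1% of its counts fell on 1 gene, Gm42418, and 39.7% on its 5 largest genes. In the other libraries the 5 largest genes held 2.43% (DN4 KO45) to 3.80% (DN4 WT40) of the counts. The scaling factor of the WT05 DN3 library was 0.577. The DN3 marker genes (Il2ra, Ptcra, Dtx1 and Hes1) summed to 909 to 1689 CPM in DN3 and 91.7 to 137.4 in DN4, and all 6 genes used for the later ISP and DP stages (Cd2, Cd28, Cd4, Cd8a, Cd8b1 and Cd5) were higher in DN4 in both genotypes. All 7 of 7 B-cell markers used (Cd79a, Cd79b, Ms4a1, Pax5, Ebf1, Cd22 and Blk) were also higher in DN4 in both genotypes, with a sum of 46.5 to 76.6 CPM in DN3, 368.4 to 3281 in Wt DN4 and 299.2 to 1909 in KO-labelled DN4, and none of them was at 0 in a whole group. The study's flow cytometry took DN subsets from lineage-negative cells, a gate that usually removes B cells, but the gate used to sort the RNA samples is not given in the sources used here. NK and innate lymphoid markers summed to 241.7 to 327 CPM in DN3, 493.1 to 641.3 in Wt DN4 and 319 to 453.8 in KO-labelled DN4, with Ncr1 and Klrb1c at 0 in every DN3 library. Myeloid markers stayed at 16.4 to 32.9 CPM throughout. In sorted bulk RNA, a change in a gene per cell and a change in the share of cells that express it cannot be told apart.

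St6gal1 encodes the enzyme that adds the α2,6-linked sialic acid to the galactose ends of N-glycans, the ligand of the B-cell lectin CD22. The gene (ENSMUSG00000022885.15) lies on chromosome 16 from 23224740 to 23360350 on the plus strand of GRCm38. RefSeq start windows (GRCm38.p6) were listed for 8 of the 10 genes, and St6gal1 had 3 of them, so its count sums transcripts that can begin at 3 places more than 1 kilobase apart. The 250 bases before each start are shown because the counts per gene cannot say which of them was used in DN4. They lie at chr16:23224490-23224739, chr16:23225771-23226020 and chr16:23290220-23290469, all on the plus strand, and overlap no annotated St6gal1 exon. Capitals mark the E-box letters CANNTG, a palindromic pattern that reads the same on both strands and that the E proteins of early T cells can bind.
St6gal1 start 1: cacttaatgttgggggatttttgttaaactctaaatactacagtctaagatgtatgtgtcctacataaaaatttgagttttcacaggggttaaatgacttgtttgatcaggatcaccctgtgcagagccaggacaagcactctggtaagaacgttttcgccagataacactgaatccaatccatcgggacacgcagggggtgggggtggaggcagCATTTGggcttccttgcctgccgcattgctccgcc
St6gal1 start 2: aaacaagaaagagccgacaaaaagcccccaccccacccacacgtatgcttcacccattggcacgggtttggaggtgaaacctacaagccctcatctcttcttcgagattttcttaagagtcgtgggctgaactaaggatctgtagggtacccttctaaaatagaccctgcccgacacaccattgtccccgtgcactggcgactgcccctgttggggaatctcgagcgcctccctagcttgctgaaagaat
St6gal1 start 3: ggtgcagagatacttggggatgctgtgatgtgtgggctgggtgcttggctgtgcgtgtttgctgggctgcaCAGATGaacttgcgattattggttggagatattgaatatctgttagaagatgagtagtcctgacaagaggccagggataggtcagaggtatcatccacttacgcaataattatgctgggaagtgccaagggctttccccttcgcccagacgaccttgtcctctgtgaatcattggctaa
The pattern was found 1 time before the first start, 0 times before the second and 1 time before the third. It is common, since 66.2% of 32851 start windows held it in their first 250 bases.

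In DN3, St6gal1 measured 15.5, 16.1 and 17.95 CPM in Wt mice WT05, WT46 and WT48, and 14.8, 14.6 and 13.8 CPM in KO-labelled mice KO45, KO49 and KO51. In DN4, the Wt mice WT05, WT40, WT46 and WT48 had 289.8, 148.5, 155.6 and 301.1 CPM, and the KO-labelled mice had 152.5, 191.4 and 110.0 CPM. Every DN4 library was above every DN3 library, and the lowest DN4 value was 6.13 times the highest DN3 value. The Wt mean went from 16.5 ± 1.27 (SD, n = 3) to 223.8 ± 83.0 CPM (SD, n = 4), and the KO-labelled mean from 14.4 ± 0.535 to 151.3 ± 40.7 CPM (SD, n = 3 each). The fitted log2 fold change between the stages was 3.73 (SE 0.319) in Wt and 3.36 (SE 0.213) in KO-labelled mice. Within single mice the difference in log2 CPM ran from 2.97 in KO51 to 4.21 in WT05. Because this contrast was used to choose the genes, it is given as a description with no test.

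St3gal6 and St3gal2 were the other members higher in DN4 without overlap. St3gal6 adds α2,3-linked sialic acid to galactose and takes part in making selectin ligands. It measured 1.76, 1.77 and 1.65 CPM in Wt DN3 and 2.14, 2.93 and 2.35 CPM in KO-labelled DN3. In DN4 it reached 18.6, 16.3, 11.6 and 22.7 CPM in Wt and 17.6, 16.9 and 7.77 CPM in KO-labelled mice. KO51 was the lowest DN4 library for this gene, as for St6gal1. The fitted log2 fold change was 3.29 (SE 0.294) in Wt and 2.50 (SE 0.360) in KO-labelled mice.

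St3gal2 puts sialic acid on the galactose of core 1 O-glycans and of gangliosides, a set of acceptors it shares with St3gal1. It measured 4.68, 2.57 and 2.42 CPM in Wt DN3 and 2.47, 1.06 and 2.06 CPM in KO-labelled DN3. In DN4 it measured 20.7, 14.0, 13.5 and 19.5 CPM in Wt and 14.4, 13.8 and 11.5 CPM in KO-labelled mice. The highest DN3 value came from the library of WT05, the one with the low scaling factor. The fitted log2 fold change was 2.45 (SE 0.303) in Wt and 2.75 (SE 0.321) in KO-labelled mice.

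St6galnac4, which adds sialic acid to the N-acetylgalactosamine of already sialylated O-glycans, was the member lower in every DN4 library than in every DN3 library. It measured 65.0, 72.9 and 69.4 CPM in Wt DN3 and 65.6, 71.1 and 81.4 CPM in KO-labelled DN3. In DN4 it measured 42.1, 46.3, 47.3 and 60.8 CPM in Wt and 37.2, 59.2 and 55.5 CPM in KO-labelled mice. The gap between the stages was narrow, from 60.8 to 65.0 CPM. The fitted log2 fold change was -0.52 (SE 0.143) in Wt and -0.54 (SE 0.185) in KO-labelled mice. St6galnac4 and St6galnac6 are neighbours on the same strand of chromosome 2 with 10 bases between their annotated ends, so reads that run on from the first could be counted to the second.

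Over all 13361 genes kept in the 13 libraries, 12.7% were higher in DN4 without overlap and 6.86% lower, beside 3 and 1 of the 10 members. In the edgeR fits, 3 members were past the threshold upward and 1 downward in Wt, where 13.4% and 9.43% of 12691 genes were. In KO-labelled mice these counts were 3 and 2, with 11.2% and 7.34% of 12580 genes. They include St6gal1, whose rise was known when the genes were chosen, so nothing is read from them. With the mouse as a block, 3 members were past the threshold in Wt mice (18.7% of all genes), where that fit leaves out the unpaired WT40 and leaving it out alone also gave 3, and 7 in the KO-labelled ones (35.8% of all genes). With the B-cell marker level as a covariate these were 1 and 0, beside 1.93% and 0% of all genes. Leaving out 1 library gave 3 to 5 members in each genotype. In KO-labelled mice the 3 came without DN3 KO51 (11.1% of all genes) or without DN4 KO49 (11.9%). The median log2 fold change of the members was -0.02 in Wt and -0.01 in KO-labelled mice, near the median of all genes tested (-0.03 and -0.02). All 10 members passed the filter on low counts in every comparison.

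**Figure D1:**
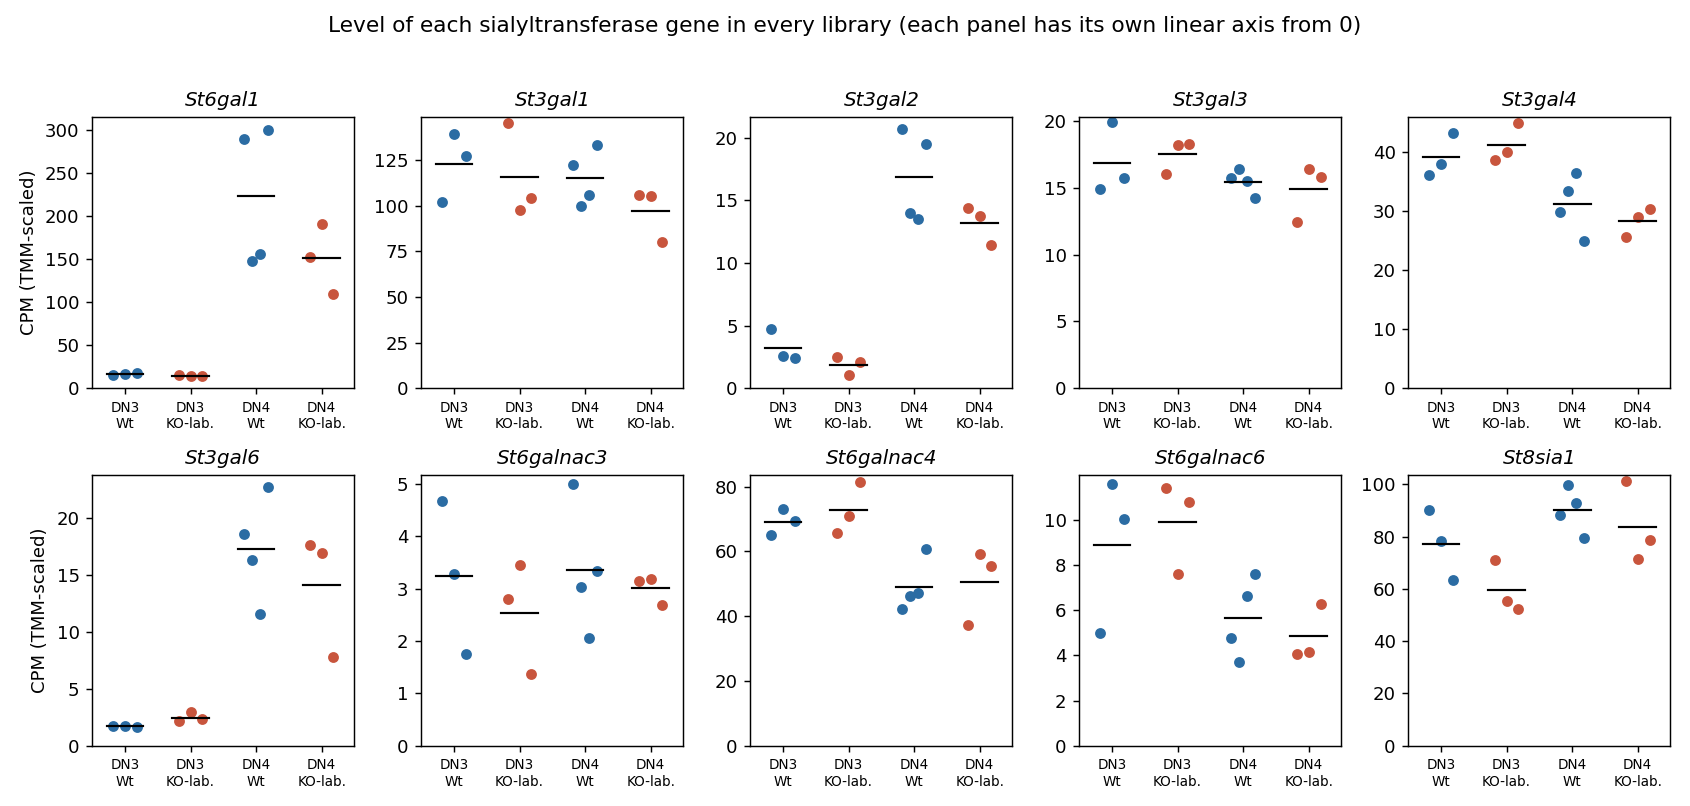
Level of each of the 10 genes in CPM (y axis, linear and from 0, its own scale in each panel) by stage and genotype, with a point for each library and a line at the mean of the group, Wt in blue and KO-labelled in red. St6gal1, St3gal2 and St3gal6 sit higher in all 7 DN4 libraries than in all 6 DN3 libraries, St6galnac4 sits lower, and the other 6 genes overlap.

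The other 6 members overlapped between the stages. St3gal1, whose α2,3-linked cap on core 1 O-glycans hides the binding site of peanut lectin on maturing thymocytes, measured 102.1 to 139.5 CPM in Wt DN3, 97.5 to 145.3 in KO-labelled DN3, 99.6 to 133.1 in Wt DN4 and 80.0 to 106.0 in KO-labelled DN4. St8sia1, the synthase of the ganglioside GD3, measured 63.3 to 90.1 CPM in Wt DN3 and 52.3 to 71.1 in KO-labelled DN3, against 79.3 to 99.9 and 71.4 to 101.2 CPM in DN4. The genotypes looked unlike for this gene, since the stages overlapped in Wt mice and not in KO-labelled mice, but the interaction was not significant (log2 0.26, edgeR adjusted p = 1).

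St3gal4, another α2,3 enzyme of galactose ends, had 36.0 to 43.2 CPM in Wt DN3 and 38.6 to 44.8 in KO-labelled DN3, against 24.9 to 36.4 and 25.6 to 30.3 CPM in DN4. Its Wt stages overlapped by a single pair of libraries, WT05 in DN3 at 36.0 and WT46 in DN4 at 36.4. St3gal3, which has similar acceptors, stayed within 12.5 to 19.9 CPM over all libraries. St6galnac6, known for α2,6 sialylation of gangliosides, ranged from 4.97 to 11.6 CPM in DN3 and from 3.71 to 7.61 CPM in DN4, with log2 fold changes of -0.70 (SE 0.350) in Wt and -1.08 (SE 0.285) in KO-labelled mice, the latter turning to 0.52 (SE 0.830) with the B-cell marker level as a covariate. St6galnac3 was the member with the fewest counts in DN4 and spanned 1.37 to 4.997 CPM, with DN3 and DN4 ranges that overlapped in both genotypes.

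Levels between genes can be compared only per length, so CPM was divided by the kilobases of annotated exon of each gene. On this scale, the Wt DN3 order began with St3gal1 (17.9 ± 2.78), St3gal4 (13.4 ± 1.27), St6galnac4 (10.7 ± 0.616) and St8sia1 (8.28 ± 1.44 CPM per kilobase, SD, n = 3 each). St3gal3 (6.09 ± 0.967), whose range overlapped that of St8sia1, St6gal1 (3.36 ± 0.259) and St6galnac6 (1.84 ± 0.718) came next. St3gal2, St6galnac3 and St3gal6 were lowest, at means of 0.640, 0.360 and 0.2796, and adjacent ones of them overlapped. In Wt DN4, St6gal1 was first at 45.5 ± 16.9, with no overlap with St3gal1 at 16.8 ± 2.24 (SD, n = 4 each). St3gal4, St8sia1 and St6galnac4 followed at 10.6, 9.65 and 7.58 and overlapped pairwise as neighbours. With the length of the longest transcript in place of all exon bases, St6gal1 stayed 6th in Wt DN3 and 1st in DN4, but went from 6th to 7th in KO-labelled DN3, below St6galnac6. The neighbours St8sia1 and St6galnac4, and St3gal2 and St3gal6, changed places in DN4 in both genotypes, as did St6galnac3 and St3gal6 in Wt DN3 and St8sia1 and St3gal3 in KO-labelled DN3.

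The share of St6gal1 in the summed family level per kilobase, over all 20 genes, was 5.15% ± 0.432 in Wt DN3 and 40.3% ± 7.78 in Wt DN4. It was 4.62% ± 0.299 in KO-labelled DN3 and 34.8% ± 4.98 in KO-labelled DN4. The share of St3gal1 was 27.3% ± 2.48 in Wt DN3 and 15.4% ± 1.04 in Wt DN4, while its own level overlapped between the stages. The family total was 65.4 ± 4.45 CPM per kilobase in Wt DN3 and 109.9 ± 20.7 in Wt DN4, against 63.7 ± 3.49 and 87.3 ± 11.5 in KO-labelled mice (SD, n = 3, or 4 for Wt DN4). Within these totals, St6gal1 held 3.36 and 45.5 in Wt and 2.94 and 30.8 in KO-labelled mice. The rise of the total thus largely repeats that of St6gal1.

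**Figure D2:**
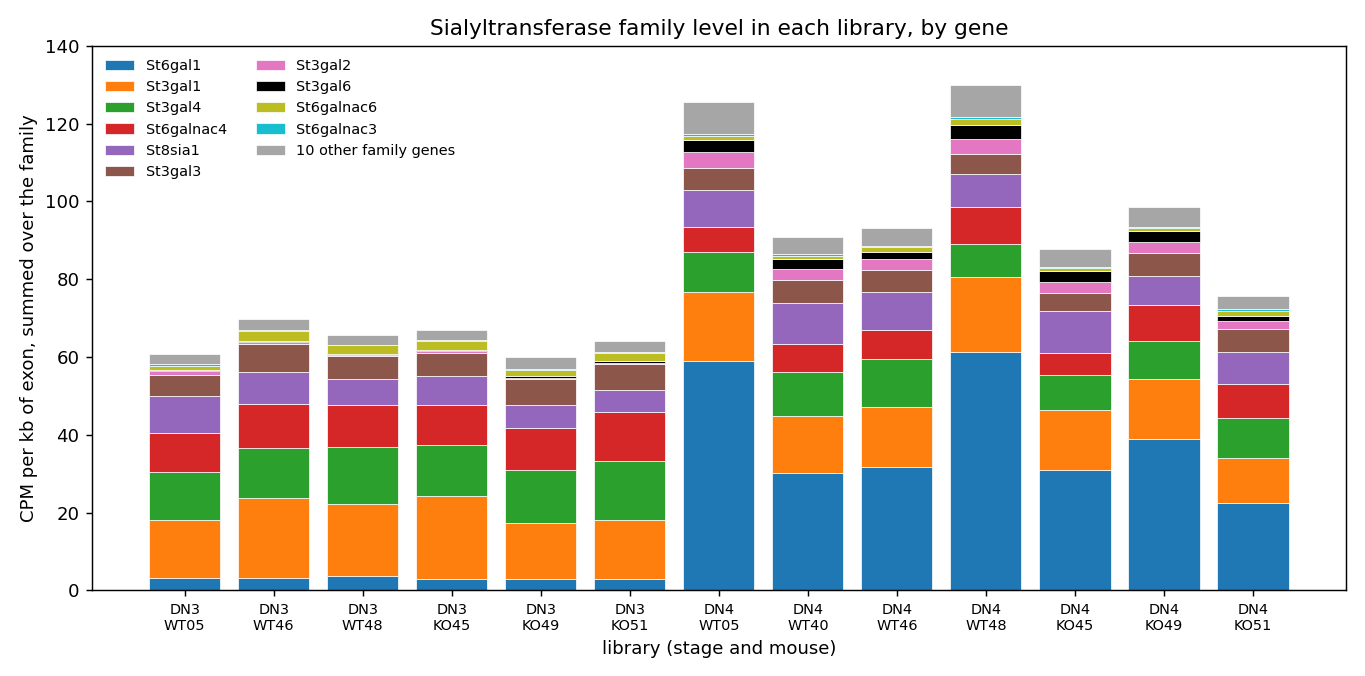
Summed level of the 20 sialyltransferase genes in CPM per kilobase of exon (y axis) in each of the 13 libraries (x axis), stacked by gene, with the 10 genes outside the list in light grey. St6gal1, at the bottom of each bar, holds 4.39% to 5.56% of the total in DN3 libraries and 29.6% to 47.2% in DN4 libraries.

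The levels of the members in the DN4 libraries were set beside the B-cell and the ISP and DP marker sums. None of the 20 relations computed (10 members by these 2 marker lists) passed after adjustment. The B-cell marker sum was 3281 CPM in WT48, 1909 in KO49, 1686 in WT05, 1074 in KO45, 494.2 in WT46, 368.4 in WT40 and 299.2 in KO51. St6gal1 followed this order except that WT05 was above KO49 and WT46 above KO45, with Pearson's r = 0.862 (exact permutation p = 0.00714) and Spearman's ρ = 0.929 (exact permutation p = 0.00675) over 7 libraries. Adjusted over the 20 relations these were 0.143 and 0.135. Without WT48 and KO49, the libraries farthest from the median, r was 0.895. Each genotype had under 6 libraries, so no correlation is given within one, but the order of the libraries by St6gal1 was that of the marker sum among the 4 Wt and among the 3 KO-labelled libraries. The γδ T-cell markers (Tcrg-C1, Trdc, Sox13 and Il17a) gave the same order among the Wt DN4 libraries. Their sums were 1399 CPM in WT48, 984.2 in WT05, 694.1 in WT46 and 659.9 in WT40. Their order differed in KO-labelled DN4, at 724 CPM in KO51, 701.6 in KO49 and 503.3 in KO45. Their part in the St6gal1 values was not tested. For St3gal6 and St3gal1 r with the B-cell marker sum was 0.824 and 0.837, at an adjusted p of 0.152 each by the same exact permutation test. It was 0.738 and 0.837 without WT48 and KO49. St6galnac4 and St6galnac6 went from 0.466 and 0.344 to -0.698 and -0.341 without them. With the ISP and DP marker sum, r was 0.779 for St8sia1 (adjusted exact permutation p = 0.152) and -0.616 for St6gal1 (adjusted exact permutation p = 0.303). Without KO45 and WT40, the libraries farthest from the median of that sum, these were 0.362 and -0.842, so the value for St8sia1 rested on those libraries.

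The 3 DN4 libraries with the lowest B-cell marker sums, 299.2, 368.4 and 494.2 CPM against at most 76.6 in DN3, had 110.0, 148.5 and 155.6 CPM of St6gal1, against at most 17.95 in DN3. Leaving out the DN4 libraries of KO45, KO49, WT05 and WT48, in 1 fit of all groups, the log2 fold change of St6gal1 was 3.20 (SE 0.128) in Wt and 2.93 in KO-labelled mice, against 3.75 and 3.39 in 1 fit of all 13 libraries. The Wt DN4 group then held WT40 and WT46 only, which are also the Wt DN4 libraries with Y-linked counts (3403 and 3716). The KO-labelled DN4 group then held KO51 alone, whose SE of 0.144 takes the spread from the other groups. With the mean log2 level of the B-cell markers as a covariate it was 1.68 (SE 0.324) in Wt and 1.92 (SE 0.425) in KO-labelled mice. In that fit St3gal6 came to 2.13 (SE 0.542) in Wt mice and to -0.0077 (SE 1.11) in the KO-labelled ones, and St3gal2 to 1.49 (SE 0.657) and 2.72 (SE 1.08). The B-cell markers themselves differed between the stages in every library, so the stage and the marker level cannot be told apart in full.

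**Figure D3:**
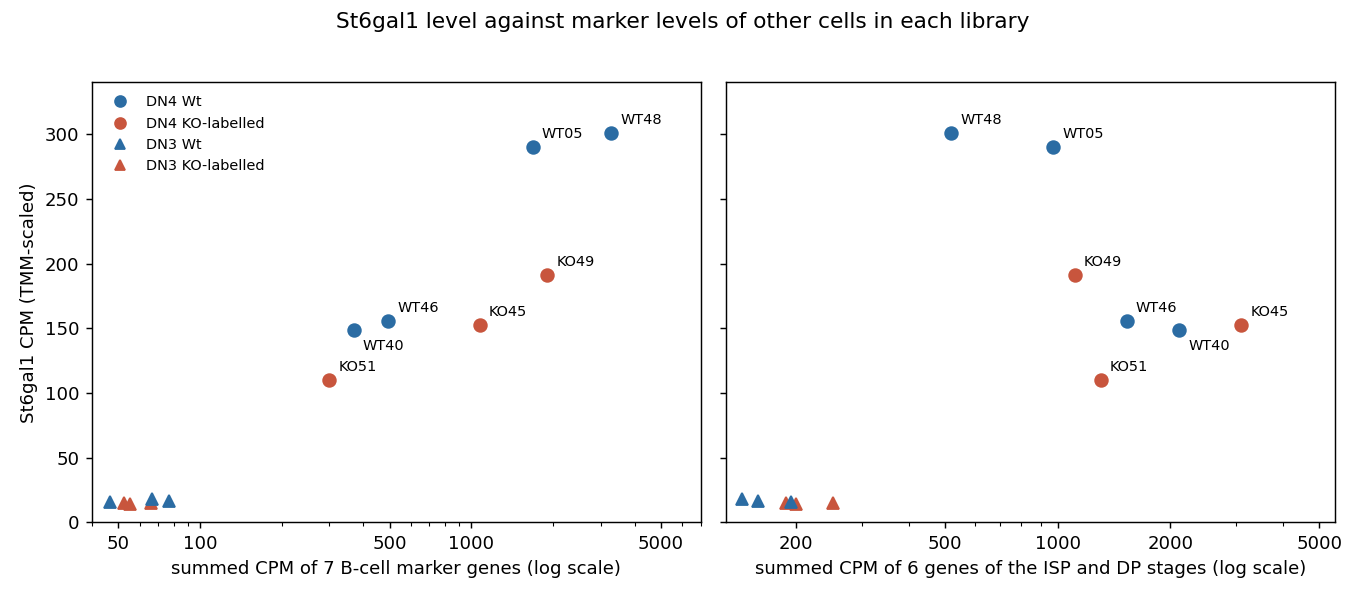
St6gal1 level in CPM (y axis, linear) against the summed CPM of 7 B-cell markers (left) and of 6 ISP and DP stage genes (right), both on log x axes, with a point for each library, triangles for DN3 and circles for DN4. The DN3 libraries lie at 13.8 to 17.95 CPM, and the DN4 libraries at 110.0 to 301.1 CPM, with WT48 highest in both St6gal1 and B-cell markers.

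Whether the family differed between Opa1fl/fl;Lck-Cre+ and WT;Lck-Cre+ mice was asked in each stage, a contrast that did not enter the choice of genes. In DN4, none of the 10 members passed the edgeR quasi-likelihood test, where 0.0535% of 13084 genes did, and 0 had an unadjusted p under 0.05 or passed with DESeq2. The members' log2 fold changes, KO-labelled against Wt, ran from -0.53 to 0.07 with a median of -0.16 (all genes 0.00), and 9 of 10 were below 0. The largest was St6gal1, at -0.53 (SE 0.295, 95% interval -1.204 to 0.15, adjusted p = 0.884). Its Wt values of 148.5 to 301.1 CPM and KO-labelled values of 110.0 to 191.4 CPM overlapped. The sums of the 6 NK and innate lymphoid markers did not overlap between these groups, at 493.1 to 641.3 CPM in Wt and 319 to 453.8 in KO-labelled DN4, although 0 of the 6 genes passed (Nkg7, noted after its value was seen, log2 -0.71, edgeR adjusted p = 0.164), and their part in the members' values was not tested. The interval of St6gal1 reached down to -1.204, so a fall of that size was not excluded with 3 and 4 mice. St3gal3, St6galnac4 and St8sia1 had narrower intervals, of -0.34 to 0.29, -0.33 to 0.48 and -0.41 to 0.27. The groups overlapped in CPM for all 10 members, whereas 7.11% of all genes did not overlap.

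In DN3, 0 of the 10 members and 0% of 12105 genes passed the edgeR test, and 0 members had an unadjusted p under 0.05 or passed with DESeq2. The members ran from -0.70 for St3gal2 (SE 0.466) to 0.50 for St3gal6 (SE 0.373), with a median of -0.03 (all genes -0.01). The groups did not overlap for 2 members, against 6.52% of all genes. These were St6gal1, lower in KO-labelled mice by a gap of 14.8 to 15.5 CPM, and St3gal6, higher in KO-labelled mice by a gap of 1.77 to 2.14 CPM. The upper edge of the St6gal1 gap was the WT05 library, with 53 counts of this gene and the low scaling factor of 0.577. Scaling to library totals turned the St6gal1 difference from -0.21 to 0.021, while the median of all genes moved by 0.24, so that relative to that median it was -0.20 before and -0.21 after.

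The interaction of stage and genotype, which asks if the stage difference itself differed, passed for 0 of the 10 members and 0% of 13361 genes, and for 0 members at an unadjusted p under 0.05 or with DESeq2. The interaction values ran from -0.79 for St3gal6 (SE 0.470, adjusted p = 1) to 0.30 for St3gal2 (SE 0.429, adjusted p = 1), and that of St6gal1 was -0.36 (SE 0.385, adjusted p = 1).

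The ratio of St6gal1 to St3gal1 counts within a library does not depend on library scaling. It was 0.102 to 0.153 in the 6 DN3 libraries and 1.38 to 2.37 in the 7 DN4 libraries. In DN4 the log2 ratio was 0.89 ± 0.37 in Wt and 0.62 ± 0.22 in KO-labelled mice, a difference of -0.27 (two-sided exact permutation p = 0.286, n = 4 and 3, smallest possible 0.0286). In DN3 it was -2.88 ± 0.21 and -2.98 ± 0.28, a difference of -0.10 (two-sided exact permutation p = 0.6, n = 3 each, smallest possible 0.1).

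**Figure D4:**
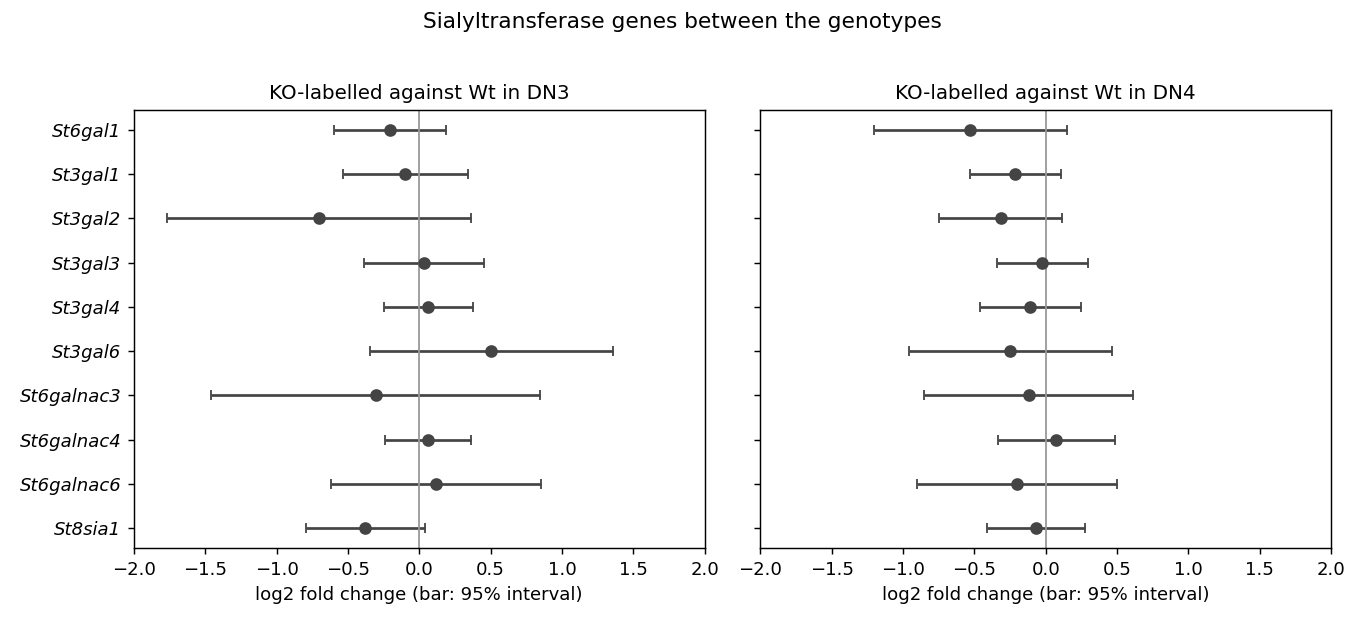
Log2 fold change of the 10 genes, KO-labelled against Wt (x axis), in DN3 (left) and DN4 (right), with points for the edgeR estimate and bars for its 95% interval. Every interval includes 0, and the widest are those of the genes with few counts, St3gal2 and St6galnac3 in DN3.

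Of the 10 sialyltransferase genes outside the list, 4 had 0 counts in all 13 libraries (St6gal2, St6galnac1, St8sia3 and St8sia5). St8sia2 had at most 1 count, and St6galnac2 had 0 counts in all DN3 libraries and 0 to 4 in DN4. St8sia4, a polysialyltransferase, was called higher in Wt DN4 (71.2 ± 27.3 against 32.2 ± 9.62 CPM, log2 1.14, edgeR adjusted p = 0.0381) and not in KO-labelled mice (48.5 ± 12.5 against 35.7 ± 1.91 CPM, log2 0.42, adjusted p = 0.170). The interaction for St8sia4 was -0.72 (SE 0.418, adjusted p = 1). St8sia6 had 0 to 3 counts in DN3 libraries and 17 to 82 in DN4 libraries and was called in both genotypes (adjusted p = 0.00226 in Wt and 0.00341 in KO-labelled mice). St6galnac5 had 0 to 2 counts in DN3 and 6 to 24 in DN4 and was called in Wt (adjusted p = 0.0327). St3gal5, the synthase of the ganglioside GM3, was at 2.41 ± 1.34 CPM in Wt DN3 and 5.28 ± 1.27 in Wt DN4 and did not pass (adjusted p = 0.120).

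Another 84 genes, these 10 among them, cover the supply of sialic acid, the chains that carry it, the caps that compete with it and the lectins that read it. The lists were chosen with earlier results of these data known, so their counts beside the shares of all genes are a description. Of the 63 genes tested in Wt, 20 rose and 8 fell between DN3 and DN4, where 13.4% and 9.43% of all genes did. Of the 62 tested in KO-labelled mice, 15 rose and 5 fell, where 11.2% and 7.34% of all genes did, or 31 in all with the mouse as a block (35.8% of all genes). In the genotype contrasts and the interaction, 0 passed, by edgeR and by DESeq2. The count depended on single libraries, being 18 in Wt without WT46 in DN3 (14.4% of all genes), and 13 and 11 in KO-labelled mice without KO49 and KO51 in DN3 (10.7% and 11.1%). It was 2 and 0 with the B-cell marker level as a covariate (1.93% and 0%), and 22 and 7 without the 4 DN4 libraries highest in these markers (14.2% and 4.92%), in 1 fit of all groups that gave 33 and 23 with all 13 libraries. The 7 rest on KO51 as the only KO-labelled DN4 library, assumed to vary like the other groups. With that covariate the fitted values of St8sia4, Gcnt1, Man1a and B4galt5 were below 0 in both genotypes, those of Siglecg and Cd44 in Wt and that of Ugcg in KO-labelled mice.

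None of the genes that make and deliver the donor CMP-sialic acid passed in either genotype, with 4 of 5 tested, beside 22.9% and 18.6% of all genes called in Wt and KO-labelled mice, and a median log2 fold change of 0.01 in Wt and -0.10 in KO-labelled mice. Gne, which makes the precursor of sialic acid and limits its supply, was at 46.1 ± 3.49 CPM in Wt DN3 and 37.3 ± 5.55 in Wt DN4 (log2 -0.34, edgeR adjusted p = 0.133). Nans, the synthase, was at 90.2 ± 13.3 and 90.1 ± 11.3 CPM, and Cmas, which activates sialic acid, at 56.4 ± 3.49 and 59.9 ± 1.04 CPM. Slc35a1, the Golgi transporter, was at 19.5 ± 1.89 and 25.4 ± 1.58 CPM (log2 0.36, adjusted p = 0.0902). Nanp, the phosphatase of the pathway, was under the filter at means of 0.220 to 0.819 CPM. Of 7 tested genes of sialidases, sialic acid breakdown and O-acetylation, 0 rose and 1 fell in Wt (13.4% and 9.43% of all genes), and 1 rose and 0 fell in KO-labelled mice (11.2% and 7.34%). The one that rose was the sialidase Neu3, noted after its values were seen (log2 0.84 in KO-labelled mice, adjusted p = 0.0223, and 0.64 in Wt, adjusted p = 0.105). Npl, which breaks down free sialic acid, fell in Wt (4.27 ± 0.724 to 1.64 ± 0.447 CPM, adjusted p = 0.0144) and was at 3.999 ± 0.937 and 2.58 ± 0.460 CPM in KO-labelled mice (adjusted p = 0.195).

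Among 13 tested genes of O-glycan synthesis, 5 rose and 0 fell in Wt, and 3 rose and 0 fell in KO-labelled mice, beside 13.4% and 9.43% of all genes in Wt and 11.2% and 7.34% in KO-labelled mice. Their median log2 fold change was 0.35 in Wt and 0.24 in KO-labelled mice, against -0.03 and -0.02 over all genes. Gcnt1, the core 2 branching enzyme, rose from 0.890 ± 0.777 to 15.5 ± 12.9 CPM in Wt (adjusted p = 0.0137) and from 2.18 ± 0.436 to 11.1 ± 7.68 CPM in KO-labelled mice (adjusted p = 0.0161). Its relative Gcnt4 had 0 to 6 counts in DN3 libraries and reached 3.75 ± 0.590 CPM in Wt DN4 and 2.05 ± 0.680 in KO-labelled DN4 (adjusted p = 0.00166 and 0.0295). Galnt6 and Galnt10, which start O-glycans, rose in Wt by 0.88 and 0.75 on the log2 scale (adjusted p = 0.000755 and 0.00342), and Galnt10 also in KO-labelled mice (0.55, adjusted p = 0.0113).

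In the N-glycan list, 2 genes rose and 5 fell of 14 tested in Wt, with a median of -0.05, beside 13.4% and 9.43% of all genes. In KO-labelled mice 1 rose and 3 fell, with a median of -0.13, beside 11.2% and 7.34%. B4galt4, a galactosyltransferase, fell from 17.9 ± 2.03 to 2.91 ± 0.456 CPM in Wt (log2 -2.64, adjusted p = 0.000123) and from 12.95 ± 1.85 to 3.997 ± 1.196 CPM in KO-labelled mice (log2 -1.72, adjusted p = 0.00457). Fut8, the core fucosyltransferase, fell from 100.5 ± 19.3 to 54.2 ± 6.54 CPM in Wt (adjusted p = 0.00408) and from 111.2 ± 26.5 to 53.1 ± 6.76 in KO-labelled mice (adjusted p = 0.00690). The mannosidase gene Man1a passed in Wt (72.5 ± 17.2 to 166.1 ± 67.4 CPM, adjusted p = 0.0304, with 0.0739 in KO-labelled mice), and the genotypes were not shown to differ. Man1c1, another mannosidase gene, had 0 to 3 counts in DN3 and 7.91 ± 3.16 CPM in Wt DN4 (adjusted p = 0.00175).

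Of 4 tested ganglioside genes, 3 rose in Wt and 2 in KO-labelled mice, where 13.4% and 11.2% of all genes rose, and their medians were 1.37 and 1.01. B4galnt1, which commits the chain to complex gangliosides, rose from 98.6 ± 25.1 to 273 ± 57.4 CPM in Wt (adjusted p = 0.00280) and from 109.8 ± 7.53 to 233.2 ± 33.2 CPM in KO-labelled mice (adjusted p = 0.00167). B4galt5, a lactosylceramide synthase, rose by 1.30 and 1.12 on the log2 scale (adjusted p = 0.0258 and 0.0178). Ugcg, the first enzyme of the chain, rose by 0.67 in Wt (adjusted p = 0.00879) and was at 0.14 in KO-labelled mice (adjusted p = 0.430). Fut4, a fucosyltransferase that acts on the same chain ends, fell in both (log2 -1.82 and -1.35, adjusted p = 0.0214 and 0.0258).

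Of 6 tested lectin genes, 3 rose in each genotype, where 13.4% of all genes rose in Wt and 11.2% in KO-labelled mice. Cd22 and Siglecg, both sialic acid lectins of B cells, reached 54.5 to 801.7 and 36.6 to 311.2 CPM in Wt DN4 from at most 1.76 and 4.51 CPM in Wt DN3 (adjusted p = 0.00317 and 0.00448), and Cd22 is itself 1 of the 7 B-cell markers above. Lgals3, which encodes galectin-3, had 0 to 3 counts in DN3 and 7.98 ± 2.62 CPM in Wt DN4 (adjusted p = 0.00115). Of the 8 carrier glycoproteins, 4 rose and 1 fell in each genotype, with medians of 0.53 in Wt and 0.33 in KO-labelled mice, beside the same shares of all genes. Cd8a and Cd8b1, the CD8 chains, rose by 4.36 and 3.69 in Wt and by 4.35 and 3.74 in KO-labelled mice on the log2 scale (largest adjusted p = 0.00594). Both are also among the ISP and DP stage genes above, so their rise is not a separate result. Cd44 and Ptprc (CD45) rose by 1.95 and 0.78 in Wt (adjusted p = 0.00554 and 0.0289), and Cd24a fell.

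**Figure D5:**
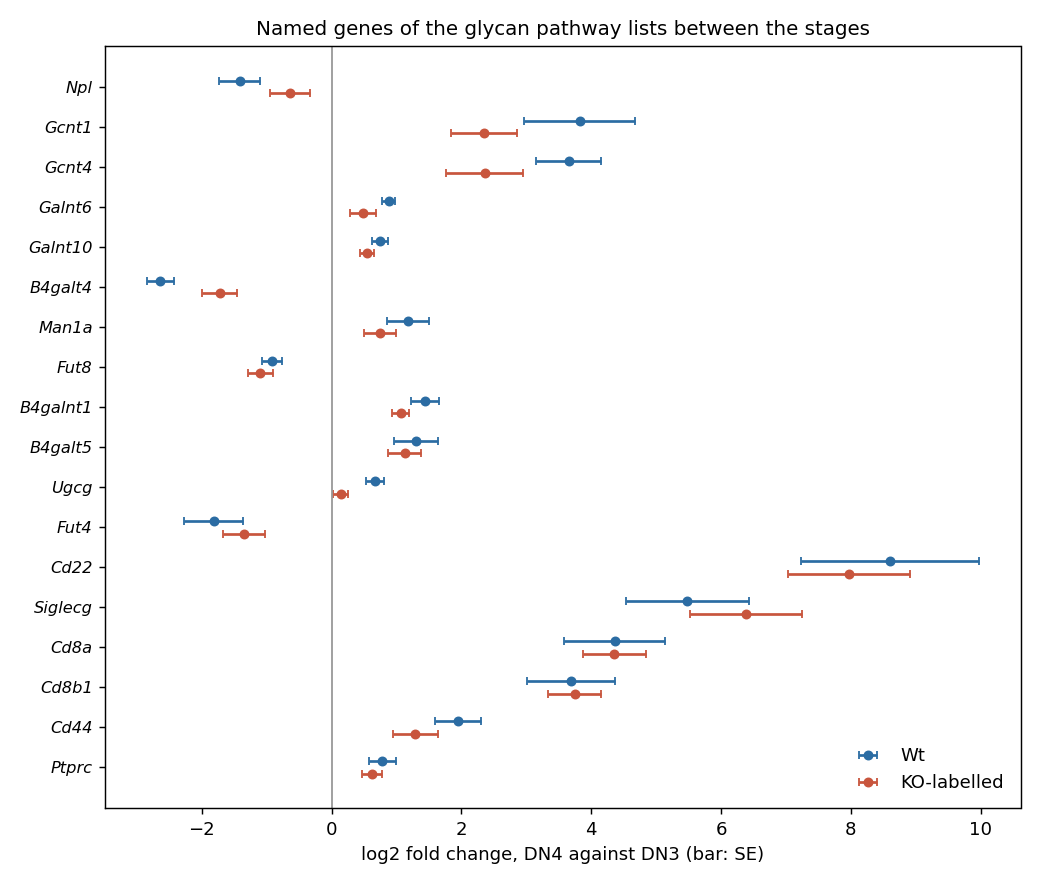
Log2 fold change, DN4 against DN3 (x axis), of the named genes of the pathway lists other than the sialyltransferases, Wt in blue and KO-labelled in red, with bars for the SE. Man1c1 and Lgals3, with at most 3 counts in DN3 libraries, are left out, and the signs match between the genotypes for all the genes drawn, from B4galt4 at -2.64 to Cd22 at 8.60 in Wt.

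The genes most like St6gal1 were sought among the 13361 genes by Pearson's r of log2 CPM over the 13 libraries, as a description. They were Gm45837 (0.996), Rhof (0.994), Add1 (0.994), Ildr1 (0.994) and Gm13091 (0.993). The most opposite were Frmd6 (-0.994), Bst1 (-0.992), Qsox2 (-0.991), Igf2bp2 (-0.991) and Dnajc6 (-0.989). All 10 differ between the stages, which the 13 points share.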

How the data were processed

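RNA of sorted DN3 and DN4 thymocytes was sequenced with a stranded mRNA kit. The authors trimmed reads with Cutadapt, mapped them with STAR (mm10) and made the deposited counts per gene with featureCounts. The strand setting is not given in the sources used here, so reads of overlapping antisense genes (BC106179 for St6gal1, Dcbld2 for St3gal6) may be included. Of 47937 gene identifiers, 47310 were found in GENCODE M21 without their version. There were 0 unused columns. The 10 genes and all lists were chosen with earlier results of these data known. The marker lists were shortened by 2 genes, which are not reported here and entered no sum or covariate.

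Each comparison was fitted on its own libraries by edgeR 4.0.16 and its quasi-likelihood test (R 4.3.3, filterByExpr with a minimum count of 10, TMM), and p-values were adjusted over all genes tested at 0.05. The interaction used all 13 libraries. The SE is the log2 fold change over the square root of F and is imprecise for values near 0. Levels are CPM on TMM-scaled totals over all 13 libraries, as mean ± SD over mice. Alternatives were DESeq2 1.42.0, other scalings, no filter, leaving out each library, the mouse as a block and the B-cell marker level as a covariate. A single fit of all groups without the 4 DN4 libraries highest in B-cell markers, and the DN4 genotype fits with the marker covariate or without WT40 and WT46, were added after the data were seen. Same-mouse libraries come from the same animals, and their deviations from group means correlated at r = 0.124 to 0.460 in the 6 pairs. No pair of libraries within a group agreed within sampling noise (smallest chi-squared per degree of freedom 6.19). At the median depth of 10023044 counts, the precision of a low gene is limited by its counts. Named pathway genes were, per list, up to 4 with the largest change in Wt past the threshold. The scripts were tested on simulated data with known changes. Columns of comparisons made by the authors were not used.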

Additional observations from a re-analysis of the deposited data

How the results depend on the processing

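With the B-cell marker level as a covariate, the log2 fold change of St6gal1 between the stages moved from 3.73 to 1.68 in Wt and from 3.36 to 1.92 in KO-labelled mice, and without the 4 DN4 libraries highest in these markers, in 1 fit of all groups, to 3.20 and 2.93 (3.75 and 3.39 in that form with all 13 libraries). That fit leaves WT40 and WT46 as the Wt DN4 libraries, and KO51 as the only KO-labelled DN4 library, assumed to vary like the other groups. Leaving out 1 library at a time it ran from 3.55 to 3.88 and from 3.16 to 3.53. The count of pathway genes called was 28 in Wt (2 with the covariate, 18 to 35 leaving out 1 library) and 20 in KO-labelled mice (0 with the covariate, 7 without the 4 libraries against 23 with all 13 in 1 fit, 11 to 21 leaving out 1 library). With the mouse as a replicate block it was 31 in KO-labelled mice and 25 in Wt, where the block also leaves out WT40 (26 without WT40 alone). The members past the threshold between the stages went from 4 to 3 in Wt, as without WT40 alone, and from 5 to 7 in KO-labelled mice (1 and 0 with the covariate). All genes called went likewise, in Wt from 22.9% to 18.7% with the block and 1.93% with the covariate, and in KO-labelled mice from 18.6% to 35.8% and 0%, while in the genotype interaction 0 members passed with and without the block. The covariate turned the direction of St8sia4 (-0.65), Gcnt1 (-0.998), Man1a (-0.89), B4galt5 (-0.75), Siglecg (-0.30) and Cd44 (-0.34) in Wt, and of St3gal6 (-0.0077, SE 1.11), St6galnac6 (0.52), St8sia4 (-1.02), Gcnt1 (-1.38), Man1a (-1.06), B4galt5 (-0.55) and Ugcg (-0.15) in KO-labelled mice. St8sia4 was also at -0.025 (SE 0.271) in the KO-labelled contrast without the 4 libraries, from KO51 alone. St6gal1 in DN3 between the genotypes was 0.021 with library totals, which moved the median of all genes by 0.24 there, by 0.19 between the Wt stages and by -0.18 in the interaction. The DN3 log2 ratio of St6gal1 to St3gal1 ran from -0.22 to 0.061 leaving out 1 library. The cause of these shifts was not tested. No alternative gave a member a call between the genotypes, while DESeq2 called 51 genes in DN4 against 7 by edgeR. Genes under about 5 CPM rest on few counts, and 3 or 4 mice a group bound what could be seen.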

Other observations

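The Wt DN4 libraries differed in counts of Y-linked genes. WT40 and WT46 held 3403 and 3716 counts of Y-linked genes, with 148.5 and 155.6 CPM of St6gal1 and B-cell marker sums of 368.4 and 494.2 CPM. WT05 and WT48 held 0 Y-linked counts, with 289.8 and 301.1 CPM of St6gal1 and B-cell marker sums of 1686 and 3281 CPM. All KO-labelled libraries held 0 Y-linked counts. Without the DN4 libraries of WT40 and WT46, the St6gal1 difference between the genotypes in DN4 was -0.92 (SE 0.225, edgeR adjusted p = 0.398), against -0.53 with all libraries. Since WT40 and WT46 were also the lowest Wt libraries in St6gal1, leaving them out had to enlarge the difference, and nothing is drawn from it. With the B-cell marker level as a covariate it was -0.395 (SE 0.103, edgeR adjusted p = 0.260, unadjusted 0.00332). Over all alternatives run for this value the edgeR or DESeq2 adjusted p lay between 0.260 and 1. The part of the Y-linked counts in these values was not tested.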
